A study of Mus musculus with 29 samples.

Results

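The integrin and laminin subunits are the genes of the series whose symbol starts with Itga, Itgb, Lama, Lamb or Lamc and ends in the subunit's number or letter. The rule used names only, not expression, and found 37 of the 25746 genes in the count files: 18 integrin alpha subunits, 8 integrin beta subunits and 11 laminin chains. A total of 36 of the 37 passed the filter on low counts and were tested. The exception was Itgb6, the beta 6 subunit, which had 0 to 6 counts in each of the 29 samples and is not part of any count of changed genes here.

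Integrins are cell surface receptors made of an alpha and a beta subunit, and they tie the cytoskeleton to extracellular matrix or to proteins on other cells. The beta 2 integrins are found on leukocytes, which in brain tissue include microglia, whereas most beta 1 and alpha v integrins bind matrix and are found on many cell types. Laminins are secreted trimers of an alpha, a beta and a gamma chain that build the basement membrane around brain vessels and under the pia, and several integrins bind them.

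The series measured RNA from brain tissue of mice 21 days after photothrombotic stroke, a light-induced vessel occlusion in the right sensorimotor cortex, in animals with an intact, a suppressed or a genetically deficient immune system. Tissue around the stroke was dissected, so each value is an average over all cells in the piece. The study's methods state an age of 3 months and both sexes, and call the control tissue contralesional where its results speak of naïve mice. These controls are named non-stroked here.

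WT mice were C57BL/6, with 4 non-stroked and 4 stroked samples. WT-Tacr mice were the same strain with stroke and tacrolimus, a calcineurin inhibitor that blocks T cell activation, released from a pump under the skin. The drug was given from the day of stroke in WT-Tacr acute mice (3 samples) or from a week later in WT-Tacr delayed mice (5 samples). Rag2-/- mice, which cannot rearrange antigen receptor genes and form no mature T and B cells, gave 3 non-stroked and 3 stroked samples. NSG mice, of NOD background with changes in Prkdc and Il2rg, lack T, B and NK cells and gave 4 non-stroked and 3 stroked samples. No non-stroked mice on tacrolimus were analysed here, so WT, WT-Tacr acute and WT-Tacr delayed mice were all compared with the same 4 non-stroked WT samples and these comparisons are not independent of each other. No label names separate litters or days, so p values measure the spread between these samples.

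Total counts per sample ranged from 17789044 to 43403413. By their names the samples form 2 cohorts, Imm2 (20 samples, median total 37223696) and TF (9 samples, median 23155303). All non-stroked, Rag2-/- and NSG samples were in Imm2 and all WT-Tacr delayed samples in TF. Stroked WT had 2 samples in each, and WT-Tacr acute had 1 in Imm2 and 2 in TF. Ddx3y, a gene of chromosome Y, had 0 counts in all WT-Tacr delayed samples and at least 1664 counts in each non-stroked WT and NSG sample, so cohort, sex and delayed drug cannot be told apart against the non-stroked mice. The stroked NSG samples are named 1f_1, 1f_2 and 1m_3, so sex may also be unbalanced between stroked and non-stroked NSG mice. Rag2 had 0 counts in 28 of the 29 samples and therefore does not test the Rag2-/- label. The T cell genes Cd3d and Cd3g were at 0 in all NSG samples, and had at most 1 count in any Rag2-/- sample. Summed CPM (counts scaled to the size of the library) of all 5 T cell markers, with Cd3e, Cd4 and Cd8a, did not follow this. The sum ran from 3.66 to 35.5 in non-stroked NSG, 3.71 to 17.8 in non-stroked Rag2-/- and 3.47 to 9.71 in non-stroked WT mice. Summed CPM of 4 choroid plexus markers ran from 3.79 to 1526 between samples, which shows that the dissected pieces differed in their content.

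The 3 WT-Tacr acute mice differed from each other. Of the 14 members called higher in stroked WT mice, mouse 1_5 had 6 and mouse 5m_1 had 9 above every non-stroked WT sample, whereas mouse 2_1 had 13. These 14 members were picked by the test of stroked against the same non-stroked WT samples, so the counts describe the 3 mice beside each other only. Mice 1_5 and 5m_1 are also those whose deposited file carries another mouse number in its name than the sample title does. Whether that bears on their values was not tested.

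Sequence upstream of 3 members is shown because their transcripts rose in several of the stroked groups and lie on both sides of the immune and matrix roles: Itgam and Itgax, which neighbour each other on chromosome 7, and Itgb5 on chromosome 16. Each window holds the 150 bases before the RefSeq transcript start on the plus strand of GRCm38.p6, at chr7:128062490-128062639, chr7:128129400-128129549 and chr16:33829515-33829664. Capitals mark matches on either strand to a purine box (GAGGAA), a GC box (GGGCGG) or an AP-1 site (TGACTCA), none of which overlapped another here.
Itgam: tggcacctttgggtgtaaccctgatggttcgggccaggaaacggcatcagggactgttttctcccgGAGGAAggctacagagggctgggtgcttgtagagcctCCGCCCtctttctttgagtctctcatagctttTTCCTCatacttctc
Itgax: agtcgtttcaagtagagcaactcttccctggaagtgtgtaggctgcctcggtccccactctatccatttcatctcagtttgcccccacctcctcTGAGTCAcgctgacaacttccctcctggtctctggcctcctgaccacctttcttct
Itgb5: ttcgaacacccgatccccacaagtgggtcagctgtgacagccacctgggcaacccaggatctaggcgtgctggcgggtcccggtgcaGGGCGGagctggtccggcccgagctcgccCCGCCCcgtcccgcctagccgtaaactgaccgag

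The Itgam window held a purine box starting 84 and another 15 bases before the start, with a GC box at 47. The Itgax window held an AP-1 site at 56, and the Itgb5 window held GC boxes at 63 and 34. Of 32851 RefSeq windows of this length, 14.5% held a purine box, 28.6% a GC box and 2.84% an AP-1 site. These matches describe letters and do not show that a factor binds there.

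In the non-stroked WT cortex the subunits covered more than 3 orders of magnitude in level per length, given as RPKM, the CPM divided by the exon length in kilobases. Itgb1, the beta subunit shared by most matrix-binding integrins, was highest at 15.9 ± 0.726 RPKM (SD, n = 4). Itgav, the alpha v subunit, followed at 10.1 ± 0.697 RPKM and its partners Itgb5 and Itgb8 at 8.06 ± 0.93 and 6.18 ± 0.361 RPKM. These levels were ordered without an overlap of 1 SD between neighbours.

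The laminin chain with the highest level was Lamc1, the gamma chain of most laminins, at 5.84 ± 0.507 RPKM, ahead of Lamb2 at 4.62 ± 0.488 RPKM. All 5 laminin alpha chains lay lower, between 0.338 ± 0.0569 RPKM for Lama1 and 1.19 ± 0.104 RPKM for Lama5. Of the leukocyte subunits, Itgam was highest at 4.23 ± 0.251 RPKM. Itgax was at 0.0428 ± 0.0231 RPKM and Itgad at 0.0106 ± 0.00576 RPKM, where the 4 samples had 1 to 3 counts each for Itgad.

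**Figure D1:**
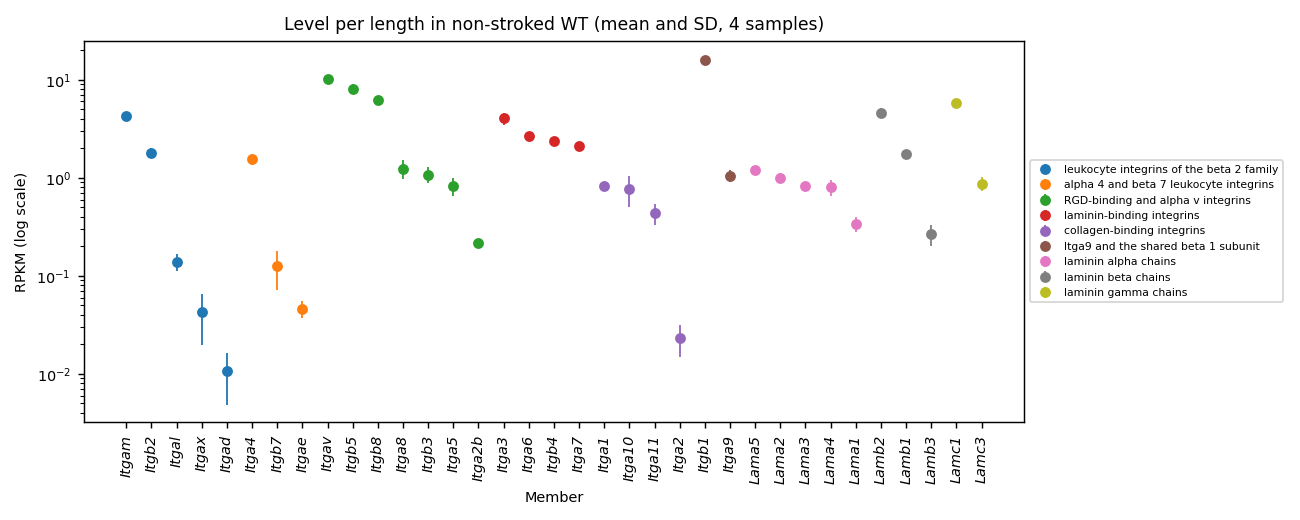
Level per length (RPKM, log scale) of 35 tested members in non-stroked WT cortex, as mean and SD over 4 samples, grouped by role. Itgb1 lies highest at 15.9 RPKM, and Itgax and Itgad lie among the lowest members, at 0.0428 and 0.0106 RPKM.

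Stroke was compared with non-stroked tissue of the same strain to ask how the injured cortex changed in each model. A member is called higher or lower at an adjusted p below 0.05 in edgeR's quasi-likelihood test with Benjamini-Hochberg adjustment over all 17031 genes tested, and every adjusted p below is from that test. In stroked WT mice 14 of the 36 members were higher and 1 was lower, where 26.9% of all genes tested were called in either direction with 15.2% higher and 11.6% lower. The median log2 fold change was 0.29 over the members and -0.00 over all genes. The 14 that rose were the 5 beta 2 integrin subunits (Itgal, Itgam, Itgax, Itgad, Itgb2), Itgb7, Itga5, Itga2b, Itgb5, Itga11, Itgb1, Lama1, Lama2 and Lamb2, and the 1 that fell was Itga3. Values of the 2 groups did not overlap for 15 members that were higher, where this held for 16.3% of all genes.

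In stroked WT-Tacr acute mice 5 members were higher and none was lower, where 8.54% of all genes were called and 6.18% were higher. In stroked WT-Tacr delayed mice 23 were higher and 3 lower, where 55.2% of all genes were called, 27.6% in each direction. In stroked Rag2-/- mice 8 were higher and none lower, where 8.23% of all genes were called and 6.71% were higher. In stroked NSG mice 10 were higher and 3 lower, where 21.9% were called, 13.0% higher and 8.89% lower. With a log2 fold change above 1 as a further condition, 9 members were higher in stroked WT (6.76% of all genes), 3 in WT-Tacr acute (2.28%), 13 in WT-Tacr delayed (11.5%), 5 in Rag2-/- (4.22%) and 6 in NSG mice (5.01%), and none was lower. Itgax, Itgad, Itgb2 and Itgb5 were higher in all 5 comparisons, with acute calls that were lost under some alternatives for each of the 4, and Itga11 and Lamb2 were higher in all but WT-Tacr acute mice. Itga1, Itgb3, Lama3, Lama4 and Lamc1 were not called in any comparison made here.

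These counts rested on the samples and cohorts to different degrees. With cohort as a covariate the count in WT-Tacr acute mice was 0. In WT-Tacr delayed mice it was then 8, and of the 26 calls only those of Itgax, Itgb2, Itgam, Itgal, Itgb5, Itga2b and Lamb2 remained, so every other call given for that group was lost, and Itgav was called in addition. Within Imm2 alone the same 7 were called in stroked WT mice and no other member. In the fit of only the NSG samples Itgax, Itgad, Itgb2 and Itgb5 alone were called. With Ddx3y as a covariate the stroked NSG calls of Itgal, Itgam, Itgb1, Itga3 and Lamb2 were lost. Without stroked NSG mouse 1f_2 the NSG count was 7, and the Rag2-/- count was 3 without 1Rag and 4 without 4f_1, and 5 without either of the other non-stroked Rag2-/- samples. The calls of Itgax, Itgb2, Itgam, Itgal, Itgb5, Itga2b and Lamb2 in stroked WT mice remained under every alternative that tested them, the minimum fold change aside.

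The WT-Tacr acute values depended on mouse 2_1. With it as the only acute mouse, assumed to vary like the other groups, the log2 fold changes were 5.93 for Itgax, 2.13 for Itgb2, 1.46 for Itgb5, 2.16 for Itga5 and 2.09 for Itgb7. In the same fit they were 1.29 for Itgal, 0.91 for Itgam, 0.92 for Itga2b, 0.81 for Lamb2, 2.20 for Itgad, 1.11 for Itga11 and 0.25 for Itgb1. Without mouse 2_1 only Itgad was called, at 3.48, and the others read 1.78 for Itgax, 0.21 for Itgb2, 0.38 for Itgb5, 0.43 for Itga5, 0.14 for Itgal, 0.13 for Itgam, 0.66 for Itga2b, 0.70 for Itga11, -0.19 for Itgb1 and 0.09 for Lamb2.

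**Figure D2:**
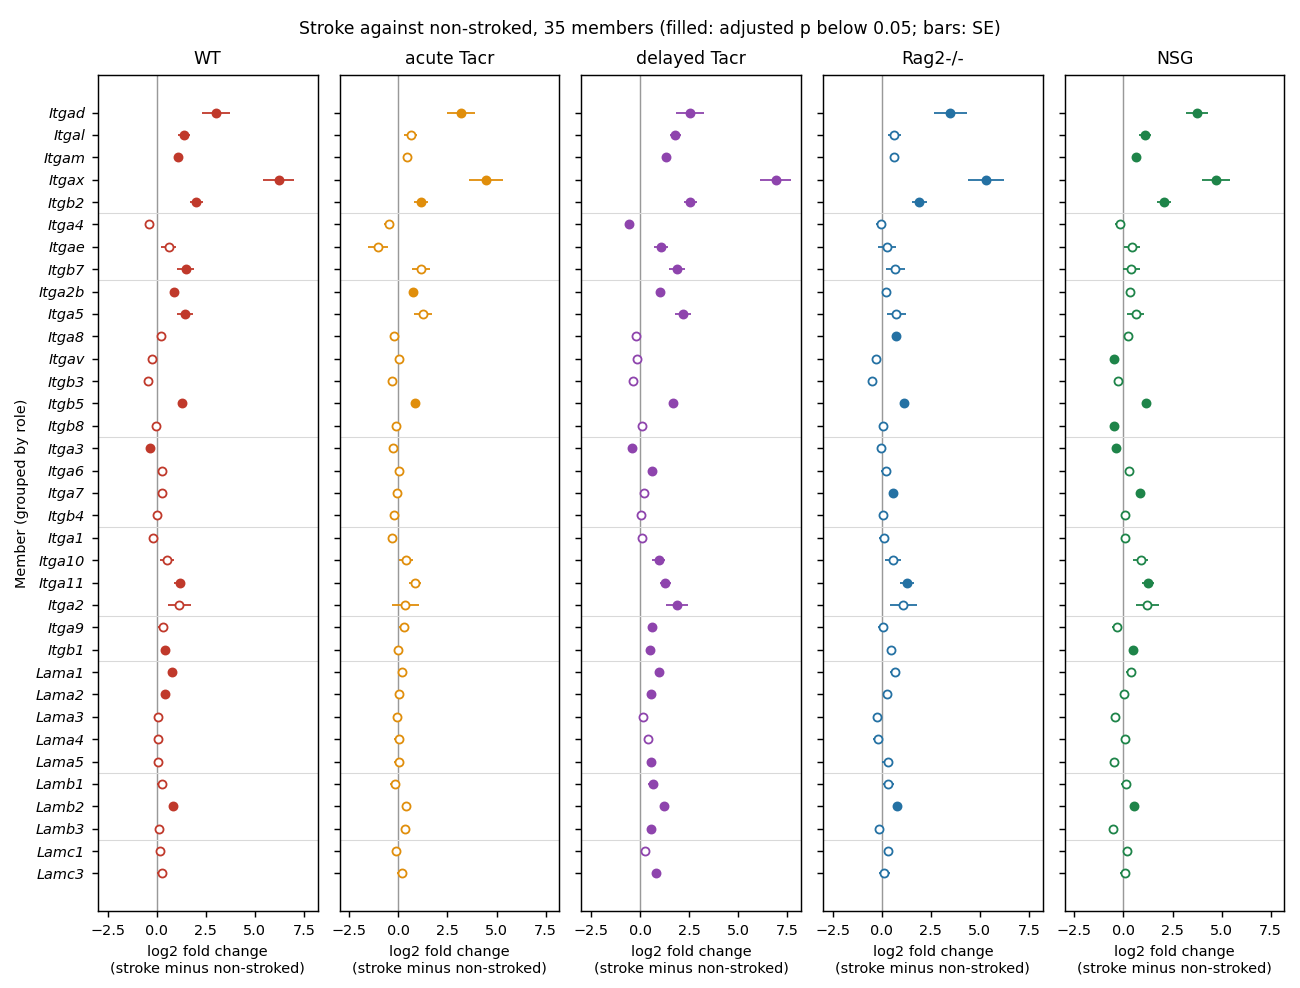
Log2 fold change of stroked against non-stroked tissue for 35 tested members in WT, WT-Tacr acute, WT-Tacr delayed, Rag2-/- and NSG mice, with SE as bars and filled points where the adjusted p was below 0.05. Itgax lies farthest right in every panel, from 4.46 in WT-Tacr acute to 6.91 in WT-Tacr delayed mice.

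The beta 2 integrins pair Itgb2 with an alpha subunit of their own: Itgal in LFA-1, which binds ICAM proteins on other cells, Itgam in the complement receptor Mac-1, Itgax in a related complement receptor, and Itgad in the least abundant member. All 4 alpha genes lie on chromosome 7, in a stretch from 127296260 to 128223816 (GRCm38). All 5 members of the family were higher in stroked WT, WT-Tacr delayed and NSG mice, and 3 of 5 in stroked Rag2-/- and WT-Tacr acute mice. Their median log2 fold changes were 2.01, 2.56, 2.06, 1.92 and 1.15 in that order.

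Itgax moved most of all members. It read 0.114, 0.218, 0.133 and 0.357 CPM in the 4 non-stroked WT mice and 13.5, 7.78, 21.6 and 19.2 CPM in the stroked ones. The lowest stroked WT mouse was thus far above the highest non-stroked one, and the log2 fold change was 6.21 ± 0.812 (SE, adjusted p = 2.08e-05).

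In WT-Tacr delayed mice Itgax read 16.2, 23.1, 27.5, 15.1 and 43.7 CPM, with a log2 fold change of 6.91 ± 0.808 (adjusted p = 7.06e-07). In WT-Tacr acute mice it read 0.974, 0.375 and 12.7 CPM, so 1 mouse was in the range of stroked WT mice and the other two just above the non-stroked range. The fitted change of that group, 4.46 ± 0.856 (adjusted p = 0.00493), mixed these 2 levels. Without mouse 2_1 its call was lost.

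In Rag2-/- mice Itgax rose from 0.453, 0.243 and 0.127 CPM to 14.6, 7.84 and 10.9 CPM, a log2 fold change of 5.30 ± 0.907 (adjusted p = 0.000849). In NSG mice it rose from 0.819, 0.711, 0.964 and 0.928 CPM to 11.8, 40.5 and 15 CPM, a log2 fold change of 4.71 ± 0.704 (adjusted p = 9.78e-05). No stroked mouse of either strain overlapped its non-stroked group. Both calls remained under every alternative that tested them.

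Itgb2, the shared beta subunit of the family, read 5.55, 5.33, 6.39 and 4.86 CPM in non-stroked and 18.8, 17.4, 23.4 and 29.9 CPM in stroked WT mice. The groups were separate, with a log2 fold change of 2.01 ± 0.337 (adjusted p = 0.000148). It read 26.7, 30.2, 34.1, 21.9 and 50.5 CPM in WT-Tacr delayed mice, and 7.2, 5.62 and 24.1 CPM in WT-Tacr acute mice. The acute group again held 1 mouse at the stroked WT level and overlapped the non-stroked mice, with a log2 fold change of 1.15 ± 0.357 (adjusted p = 0.046) against 2.56 ± 0.333 (adjusted p = 1.92e-06) in the delayed group. The acute call was lost under 10 of 17 alternatives, among them leaving out mouse 2_1 or any of 1Wt, 3Wt, 4Wt and 5Wt.

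In Rag2-/- mice Itgb2 read 5.35, 4.65 and 5.4 CPM in the non-stroked and 20.9, 19 and 18.3 CPM in the stroked samples. In NSG mice it read 4.12, 5.48, 4.56 and 5.1 CPM without and 13.5, 32.5 and 14.4 CPM with stroke. The log2 fold changes were 1.92 ± 0.391 (adjusted p = 0.00298) and 2.06 ± 0.356 (adjusted p = 0.000362), both without overlap.

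Itgam, which encodes the alpha chain known as CD11b, was already abundant without stroke. It read 22.3, 19.6, 22.1 and 21 CPM in non-stroked and 37.1, 39.5, 54 and 49 CPM in stroked WT mice, a log2 fold change of 1.08 ± 0.187 (adjusted p = 0.000215). With delayed drug Itgam read 53.2, 55.7, 52.1, 47 and 61.5 CPM, and with acute drug 23.1, 24 and 39.6 CPM. All of these lay above the non-stroked WT mice, though the acute group did not pass the test (log2 fold change 0.44 ± 0.201, adjusted p = 0.157).

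Itgam in stroked Rag2-/- mice read 49.6, 29.8 and 37.3 CPM against 26.2, 25.2 and 23.7 CPM in the non-stroked mice. The change of 0.64 ± 0.215 on the log2 scale missed the threshold (adjusted p = 0.0673), although the groups did not overlap. In NSG mice 25, 54.3 and 32.9 CPM stood against 23.5, 22.4, 25 and 24.9 CPM, and mouse 1f_1 lay level with the highest non-stroked mouse. The NSG change was 0.64 ± 0.199 (adjusted p = 0.0225), and without mouse 1f_2 the call was lost. Exons of the annotated gene Gm49368 on the same strand cover 68.7% of the exon bases of Itgam, so their counts cannot be fully separated. Gm49368 itself rose by 0.94 on the log2 scale in stroked WT mice (adjusted p = 0.00178).

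Itgal read 1.14, 0.735, 0.822 and 0.989 CPM in non-stroked and 2.2, 1.61, 3.04 and 2.87 CPM in stroked WT mice. The groups did not overlap and the log2 fold change was 1.39 ± 0.287 (adjusted p = 0.0011). WT-Tacr delayed mice read 2.61, 3.59, 3.02, 2.35 and 4.51 CPM and WT-Tacr acute mice 1.12, 0.916 and 2.24 CPM. Only the delayed group passed the test, with 1.80 ± 0.279 (adjusted p = 1.33e-05) against 0.62 ± 0.315 (adjusted p = 0.199).

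Stroked Rag2-/- mice read 1.58, 1.66 and 1.53 CPM for Itgal against 1.05, 1.15 and 0.858 CPM, separate groups with a log2 fold change of 0.64 ± 0.333 that did not pass (adjusted p = 0.27). Stroked NSG mice read 0.987, 2.45 and 1.41 CPM against 0.673, 0.686, 0.652 and 1.02 CPM. These groups overlapped at mouse 1f_1, and the change of 1.09 ± 0.312 (adjusted p = 0.0144) lost its call without mouse 1f_2.

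Itgad was near the detection limit in non-stroked mice, with 1 to 3 counts per sample in WT and 0 to 2 in Rag2-/- mice, so its fold changes are given as lower bounds against a level of 3 counts per library. Stroked WT mice read 0.353, 0.25, 0.565 and 0.519 CPM, at least 5.13-fold higher. WT-Tacr acute mice read 0.779, 0.333 and 0.232 CPM (at least 5.44-fold) and WT-Tacr delayed mice 0.362, 0.472, 0.207, 0.136 and 0.298 CPM (at least 3.59-fold). These bounds hold for the group means, and the delayed mouse at 0.136 CPM had only 3 counts itself. Itgad was the 1 family member with its highest WT-Tacr acute value in mouse 5m_1 rather than in mouse 2_1.

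Stroked Rag2-/- mice read 0.459, 0.443 and 0.582 CPM for Itgad, at least 5.47-fold higher than the non-stroked mice, a call that was lost without 1Rag. NSG mice read 0.0585, 0.279, 0.142 and 0.155 CPM without and 0.582, 4.45 and 1.47 CPM with stroke. The NSG groups did not overlap, with a log2 fold change of 3.72 ± 0.561 (adjusted p = 0.000103) and the highest value of the series in mouse 1f_2. Itgad and Itgax share 384 exact 50-base stretches of transcript, 8.43% of those of Itgad, so a small part of the Itgad counts could come from Itgax reads.

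**Figure D3:**
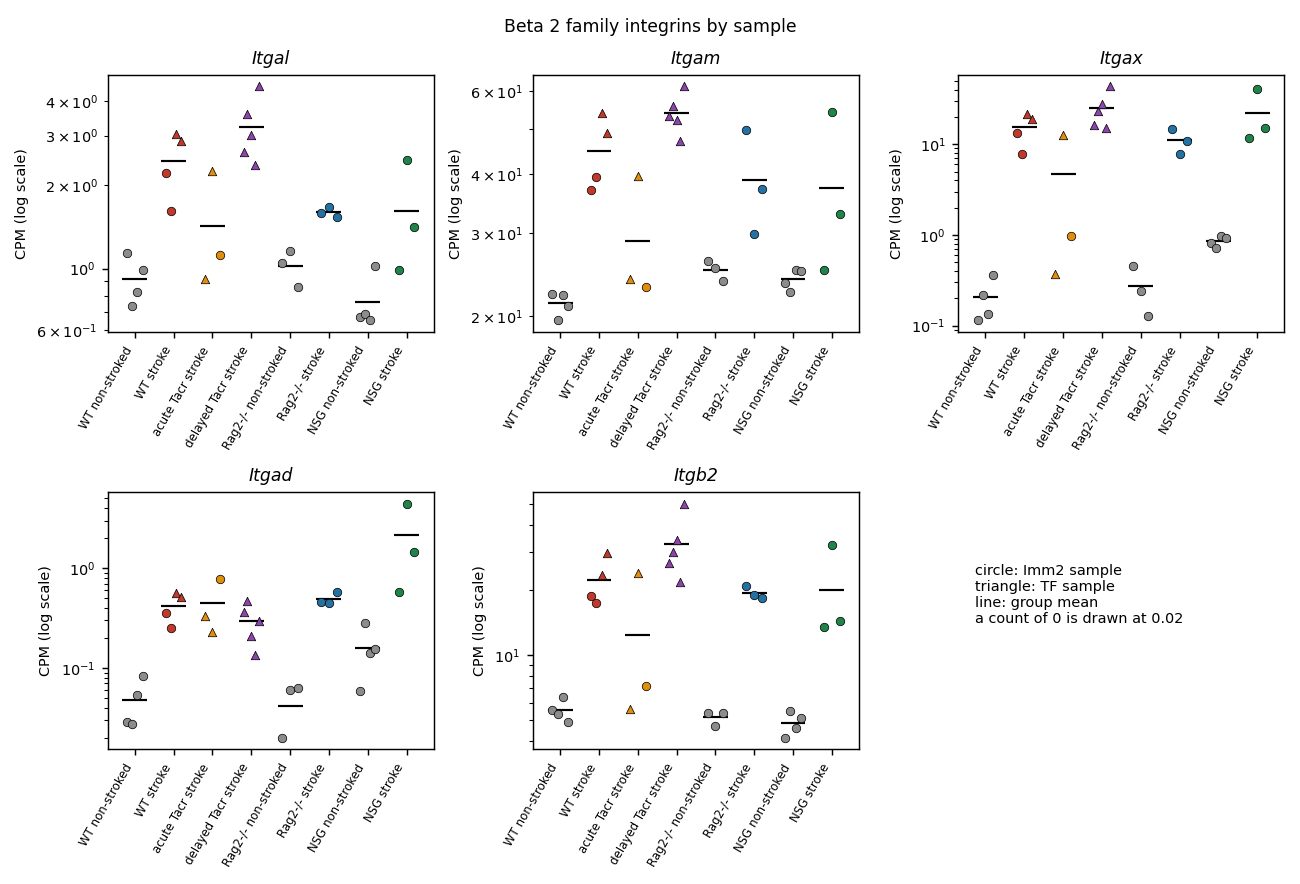
CPM (log scale) of the 5 beta 2 family subunits in each sample of the 8 groups, with circles for Imm2 and triangles for TF samples and a line at the group mean (a count of 0 is drawn at 0.02). Stroked groups lie above non-stroked ones for Itgax and Itgad, and for Itgb2 the WT-Tacr acute mice at 5.62 and 7.2 CPM lie within and just above the range of the non-stroked WT mice (4.86 to 6.39 CPM).

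Markers of microglia and macrophages and of neutrophils, some of the cells that carry these integrins, moved in the same samples. Other leukocytes carry them too, and not every leukocyte marker list rose. The summed level of 5 microglia and macrophage markers (Tmem119, P2ry12, Cx3cr1, Aif1, Cd68) was 87.5 to 109 CPM in non-stroked and 173 to 202 CPM in stroked WT mice, and 4 of the 5 rose. It was 105, 114 and 204 CPM in WT-Tacr acute mice 5m_1, 1_5 and 2_1, so mouse 2_1 stood above the others here as for Itgb2. It was 178 to 217 CPM in stroked against 103 to 112 CPM in non-stroked Rag2-/- mice, and 205 to 286 against 125 to 152 CPM in NSG mice. Neutrophil markers summed to 0.0569 to 0.797 CPM in non-stroked and 0.555 to 4.58 CPM in stroked WT mice, and to at most 6.45 CPM in any sample. Both of the 2 that were tested were called higher in stroked WT mice. In bulk tissue more cells of a type and more RNA per cell cannot be told apart, and the part of these cells in the results was not tested.

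Itga4, Itgae and Itgb7 form integrins of lymphocytes and other leukocytes, which bind VCAM-1, MAdCAM-1 or E-cadherin. Itgb7 read 0.541, 0.381, 0.212 and 0.247 CPM in non-stroked and 0.934, 0.806, 0.956 and 1.16 CPM in stroked WT mice, separate groups with a log2 fold change of 1.47 ± 0.425 (adjusted p = 0.0128). With delayed drug the values were 1.01, 1.2, 1.12, 0.86 and 2.23 CPM, a change of 1.88 ± 0.411 (adjusted p = 0.000512). Both calls were lost with cohort as a covariate, and that in WT mice within Imm2. Itgb7 did not pass in the other stroked groups, with 1.13 ± 0.462 (adjusted p = 0.114) in WT-Tacr acute mice (0.609, 0.208 and 1.47 CPM), 0.69 ± 0.48 (adjusted p = 0.44) in Rag2-/- and 0.40 ± 0.44 (adjusted p = 0.536) in NSG mice. Stroked and non-stroked values overlapped in all 3.

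Itgae, the alpha E subunit that pairs with beta 7, was low throughout. It read 0.256, 0.163, 0.239 and 0.192 CPM in non-stroked and 0.454, 0.167, 0.391 and 0.305 CPM in stroked WT mice, which overlapped. The WT-Tacr delayed mice (0.282, 0.346, 0.538, 0.407 and 0.694 CPM) lay above the non-stroked mice, with 1.06 ± 0.372 on the log2 scale (adjusted p = 0.0188), and the WT-Tacr acute mice (0.0487, 0.125 and 0.155 CPM) lay below them, with -1.03 ± 0.511 (adjusted p = 0.19). Itga4, the alpha 4 subunit, was lower in WT-Tacr delayed mice only by the test, at -0.57 ± 0.209 (adjusted p = 0.0242), and read -0.38 ± 0.22 (adjusted p = 0.2) in stroked WT mice. The Itga4 change in the delayed group was -0.13 with cohort as a covariate, and the Itgae call there was lost without 3Wt or 5_5. Cd3e, a T cell receptor gene, had 1 to 4 counts in non-stroked and 5 to 28 in stroked WT mice. The sum of the 5 T cell markers overlapped, at 3.47 to 9.71 CPM in non-stroked and 7.14 to 22.2 CPM in stroked WT mice. The part of T cells in these results was not tested.

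The integrins that bind the RGD motif of fibronectin, vitronectin and fibrinogen moved in both directions. Itgb5, which pairs with alpha v to bind vitronectin, rose in all 5 comparisons. It read 27.6, 25.2, 33.1 and 28.7 CPM in non-stroked and 59.8, 57.4, 81.1 and 85.7 CPM in stroked WT mice, separate groups with a log2 fold change of 1.31 ± 0.176 (adjusted p = 2.61e-05).

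WT-Tacr delayed mice read 81.4, 92.1, 100, 82.8 and 105 CPM for Itgb5 and WT-Tacr acute mice 37.4, 38 and 78.2 CPM. All lay above the non-stroked WT mice, with log2 fold changes of 1.69 ± 0.171 (adjusted p = 2.77e-07) and 0.84 ± 0.186 (adjusted p = 0.0108), the latter lost without mouse 2_1. Stroked Rag2-/- mice read 71.1, 61.4 and 55.6 CPM against 27.7, 29.4 and 29.6 CPM. Stroked NSG mice read 74.6, 86.7 and 62.1 CPM against 35, 32.2, 33.5 and 35.9 CPM. Both strains were without overlap, at 1.12 ± 0.202 (adjusted p = 0.00131) and 1.13 ± 0.185 (adjusted p = 0.000224). Its partner Itgav did not rise with it. Itgav read -0.26 ± 0.129 on the log2 scale in stroked WT mice (adjusted p = 0.138) and was lower in stroked NSG mice, at -0.48 ± 0.14 (adjusted p = 0.0173). Itgb8, another alpha v partner, was also lower in NSG mice, at -0.50 ± 0.173 (adjusted p = 0.0391). Both NSG calls were lost without mouse 1f_1, and that of Itgb8 also without 1NSG, 2NSG or 3NSG.

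Itga5, which forms the fibronectin receptor with beta 1, read 4.36, 4.6, 2.81 and 4.54 CPM in non-stroked and 8.74, 5.72, 15.8 and 14.5 CPM in stroked WT mice. The 2 TF samples gave the higher stroked values, the log2 fold change was 1.45 ± 0.421 (adjusted p = 0.0132), and the call was lost within Imm2 and with cohort as a covariate, and without stroked mouse 5_2. The WT-Tacr delayed mice, at 15.7, 15.6, 16.8, 19.5 and 25.6 CPM, lay above all of the non-stroked mice, with 2.19 ± 0.414 (adjusted p = 0.000114), and with cohort as a covariate the change was 1.27 and not called. WT-Tacr acute mice read 6.89, 4.08 and 18.1 CPM and did not pass, at 1.25 ± 0.447 (adjusted p = 0.0749). Non-stroked NSG mice alone spanned 2.6 to 9.99 CPM, and neither immunodeficient strain passed the test.

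Itga2b, the alpha subunit of the platelet fibrinogen receptor, showed little spread. It read 1.17, 1.25, 1.25 and 1.1 CPM in non-stroked and 2.25, 2.31, 2.13 and 2.2 CPM in stroked WT mice, a log2 fold change of 0.90 ± 0.145 (adjusted p = 0.00011). WT-Tacr acute mice read 1.73, 2.08 and 2.24 CPM and WT-Tacr delayed mice 2.33, 2.17, 2.73, 1.99 and 2.83 CPM, all above the non-stroked mice, at 0.75 ± 0.156 (adjusted p = 0.00686) and 1.01 ± 0.14 (adjusted p = 3.61e-06). The change read 0.23 ± 0.167 (adjusted p = 0.471) in Rag2-/- and 0.35 ± 0.151 (adjusted p = 0.098) in NSG mice. Platelet markers (Pf4, Ppbp, Gp1ba, Gp9, Gp6) summed to 0.381 to 0.577 CPM in non-stroked and 0.404 to 1.71 CPM in stroked WT mice, and their part in the Itga2b result was not tested. Itgb3, the platelet beta subunit that Itga2b pairs with, read -0.43 ± 0.169 in stroked WT mice (adjusted p = 0.0621).

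Among the collagen receptors, Itga11, an alpha subunit of fibroblasts, was higher in 4 of the 5 comparisons. It read 2.42, 2.2, 2.84 and 1.54 CPM in non-stroked and 3.84, 5, 6.22 and 5.35 CPM in stroked WT mice, separate groups at 1.17 ± 0.292 on the log2 scale (adjusted p = 0.00488). Stroked Rag2-/- mice read 4.7, 5.02 and 4.32 CPM against 1.59, 1.95 and 2.22 CPM, and stroked NSG mice 3.16, 9.98 and 4.47 CPM against 3.01, 1.65, 2.78 and 2.41 CPM. Neither pair overlapped, at 1.29 ± 0.341 (adjusted p = 0.0186) and 1.26 ± 0.307 (adjusted p = 0.00547). The Rag2-/- call was lost without 1Rag, 2Rag or 4f_1, the NSG call without 1f_2 and the WT call within Imm2.

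WT-Tacr acute mice read 4.09, 3.25 and 4.83 CPM for Itga11, above all non-stroked WT mice but not past the test (0.85 ± 0.312, adjusted p = 0.0823). WT-Tacr delayed mice read 4.34, 5.26, 4.88, 4.03 and 9.18 CPM, at 1.29 ± 0.282 (adjusted p = 0.000488). That call was lost with cohort as a covariate (1.07, adjusted p = 0.108). Itga2 and Itga10, other collagen receptor subunits, were higher in WT-Tacr delayed mice, at 1.86 ± 0.552 (adjusted p = 0.00624) and 0.94 ± 0.335 (adjusted p = 0.0204), and these were lost in the same way. Itga2 stayed under 1 CPM in all samples, and 33.5% of the exon bases of Itga10 lie in exons of Gm42957 on the same strand.

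Of 5 fibroblast markers (Col1a1, Col1a2, Dcn, Lum, Pdgfra), 4 were called higher in stroked WT, WT-Tacr delayed, Rag2-/- and NSG mice, and 1 in WT-Tacr acute mice. Their sum was 81.2 to 91.9 CPM in non-stroked and 267 to 562 CPM in stroked WT mice, 82.5 to 356 CPM in WT-Tacr acute and 336 to 1274 CPM in WT-Tacr delayed mice. It was 305 to 312 CPM in stroked against 85.6 to 103 CPM in non-stroked Rag2-/- mice. In NSG mice it was 193 to 1024 CPM with and 100 to 177 CPM without stroke, with the highest value in mouse 1f_2, the mouse with the highest Itga11. Their part in the Itga11 result was not tested.

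Itgb1, the common partner of the collagen, laminin and fibronectin receptors, changed by a small amount. It read 65.8, 61.3, 68.4 and 64.7 CPM in non-stroked and 73.3, 86.3, 93.7 and 89.5 CPM in stroked WT mice, without overlap and at 0.40 ± 0.137 on the log2 scale (adjusted p = 0.0333). The delayed group read 79.3, 86.5, 95.5, 77.4 and 130 CPM, at 0.53 ± 0.131 (adjusted p = 0.00161). WT-Tacr acute mice read 58.5, 56.3 and 76.6 CPM, of which 1 was above and both others below the non-stroked range, at -0.03 ± 0.148 (adjusted p = 0.92). The call in WT mice was lost without either TF sample, without 3 of the non-stroked samples taken 1 at a time, and with cohort as a covariate.

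Stroked NSG mice read 84.9, 116 and 85.4 CPM for Itgb1 against 71.2, 67.7, 66.6 and 69.9 CPM, at 0.47 ± 0.146 (adjusted p = 0.0237), a call that was lost without 1f_2 or 3NSG. Stroked Rag2-/- mice read 101, 71.6 and 87.1 CPM against 60.9, 66.1 and 58.2 CPM, at 0.49 ± 0.158, which missed the threshold (adjusted p = 0.0545). Neither pair of groups overlapped. Itga9, which pairs with beta 1 and binds tenascin C and osteopontin, was higher in WT-Tacr delayed mice, at 0.60 ± 0.225 (adjusted p = 0.0257, lost without 3Wt, 4Wt or 4_3), and read 0.30 ± 0.235 (adjusted p = 0.356) in stroked WT mice.

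The laminin-binding subunits Itga3, Itga6, Itga7 and Itgb4 moved little and not together. Itga3 was lower in stroked WT mice, at -0.37 ± 0.109 (adjusted p = 0.0158), in WT-Tacr delayed mice, at -0.40 ± 0.104 (adjusted p = 0.00213), and in NSG mice, at -0.38 ± 0.118 (adjusted p = 0.0226). Itga7, a subunit of muscle and vessel walls, was higher in Rag2-/- mice, by 0.59 ± 0.18 (adjusted p = 0.0409), and in NSG mice, at 0.82 ± 0.166 (adjusted p = 0.00133). The Itga3 calls were lost with Ddx3y as a covariate in all 3 groups, in WT mice also without 3Wt, 5_2 or 5_3, and in NSG mice without 1f_1, 1f_2, 1NSG or 3NSG. The Itga7 call in Rag2-/- mice was lost without any of 1Rag, 2Rag, 4Rag, 4f_1 and 4m_3. Itga6 was higher in WT-Tacr delayed mice alone, at 0.59 ± 0.183 (adjusted p = 0.00861), and turned to -0.08 with cohort as a covariate.

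Of the 11 laminin chains, 3 were higher in stroked WT mice (Lama1, Lama2, Lamb2), 7 were higher in WT-Tacr delayed mice, and Lamb2 alone was called in Rag2-/- and NSG mice. Of all genes 15.2%, 27.6%, 6.71% and 13.0% were higher in these comparisons. Lamb2 encodes the beta 2 chain of vascular and synaptic basement membranes. It read 26.5, 32.5, 26.8 and 26.5 CPM in non-stroked and 42.3, 42.3, 57.2 and 61.3 CPM in stroked WT mice, separate groups at 0.85 ± 0.18 on the log2 scale (adjusted p = 0.00134). The delayed group read 52.2, 66.1, 57.3, 62.7 and 90.3 CPM, at 1.23 ± 0.175 (adjusted p = 5.15e-06), and WT-Tacr acute mice 28.5, 32 and 48.8 CPM, at 0.37 ± 0.194 (adjusted p = 0.213).

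Stroked Rag2-/- mice read 54.1, 48.3 and 40.7 CPM for Lamb2 against 26.4, 30.8 and 26 CPM, and stroked NSG mice 37.5, 53.6 and 45.4 CPM against 36.8, 24.6, 36.8 and 27.3 CPM. Both were without overlap, although the lowest stroked NSG mouse lay close to 2 non-stroked ones, at 0.78 ± 0.208 (adjusted p = 0.0192) and 0.54 ± 0.192 (adjusted p = 0.0466). The NSG call was lost under 8 of 16 alternatives, among them another normalization, and the Rag2-/- call without 1Rag, 4Rag or 4f_1.

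Lama1, the alpha chain of the pial and early basement membrane, was higher in stroked WT mice, at 0.80 ± 0.218 (adjusted p = 0.00911), and in WT-Tacr delayed mice, at 0.95 ± 0.21 (adjusted p = 0.000527). Lama2, the chain of the astrocyte and muscle basement membrane, was higher by 0.42 ± 0.157 (adjusted p = 0.046) and 0.58 ± 0.15 (adjusted p = 0.00235) in the same groups. With cohort as a covariate none of these Lama1 and Lama2 calls remained. The Lama2 call in stroked WT mice was lost under 11 of 17 alternatives, among them another normalization, no filter on low counts and leaving out 1Wt, 4Wt, 5Wt, 5_2 or 5_3, with changes from 0.16 to 0.55. Lama4 and Lama5, the alpha chains of endothelial basement membrane, read 0.05 ± 0.206 and 0.07 ± 0.227 in stroked WT mice (adjusted p = 0.871 and 0.851). Markers of endothelium (Pecam1, Cldn5, Cdh5, Kdr) summed to 63.8 to 85.9 CPM in non-stroked, 43.3 to 67.5 CPM in stroked WT and 62.3 to 90.1 CPM in WT-Tacr delayed mice.

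**Figure D4:**
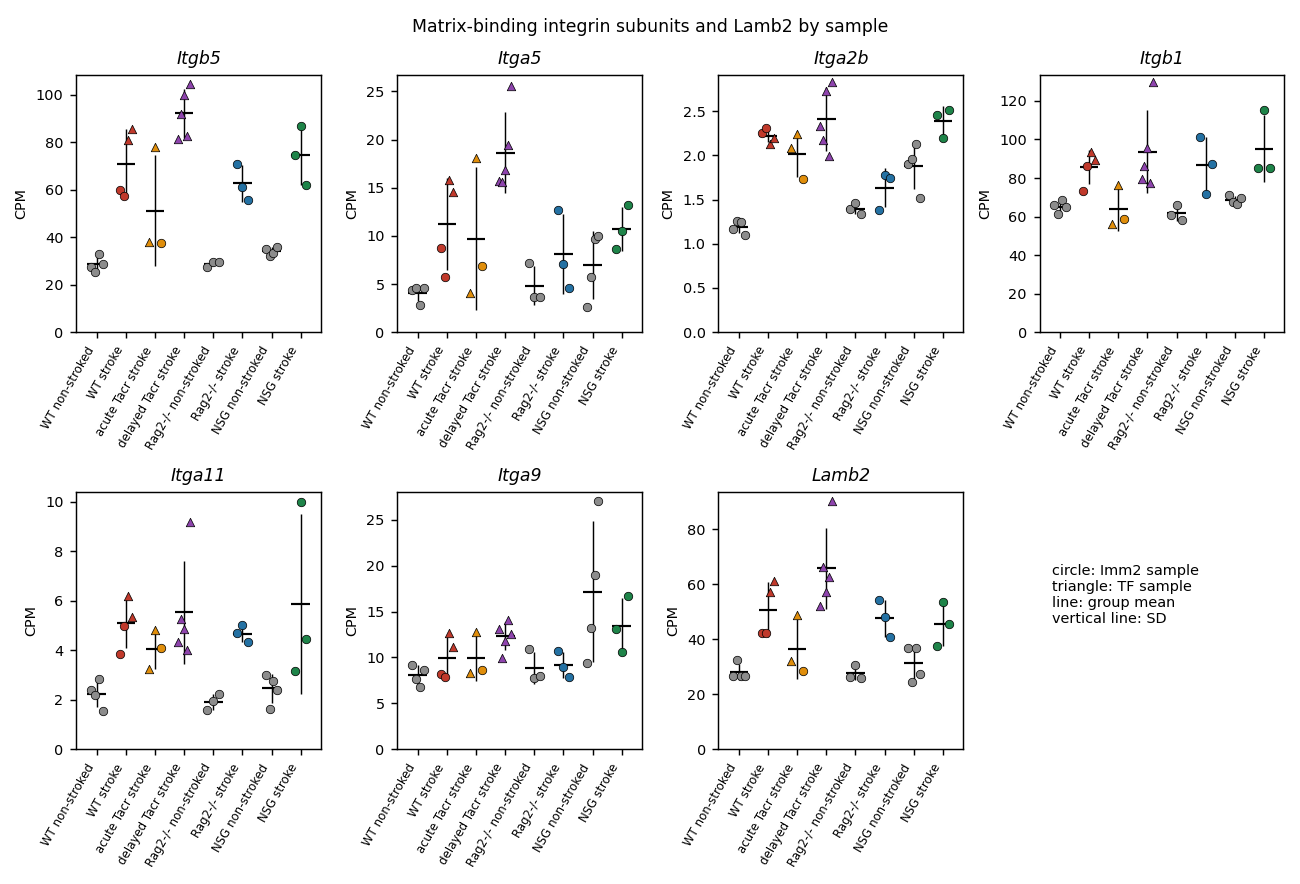
CPM of 6 matrix-binding integrin subunits and Lamb2 in each sample of the 8 groups, with circles for Imm2 and triangles for TF samples, a line at the group mean and a vertical line for the SD. Itgb5 lies above its non-stroked group in every stroked sample, whereas Itga9 is highest in non-stroked NSG mice (up to 27 CPM).

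Non-stroked NSG and Rag2-/- mice were compared with non-stroked WT mice to ask what the strain alone changes. In NSG mice 4 members were higher and 1 was lower, where 9.76% of all genes were called, 4.84% higher and 4.92% lower. Itga9, the 1 member past a log2 fold change of 1 (1.91% of all genes), read 9.42, 13.2, 19 and 27 CPM in NSG and 9.23, 7.64, 6.79 and 8.69 CPM in WT mice, separate but with a wide NSG spread, at 1.08 ± 0.234 on the log2 scale (adjusted p = 0.00264). Itgb4, the beta subunit of the laminin receptor of hemidesmosomes, was higher by 0.72 ± 0.116 (adjusted p = 8.77e-05) and was the 1 call that remained under every alternative that tested it, the minimum fold change aside.

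Itga2b read 1.9, 1.96, 2.13 and 1.52 CPM in non-stroked NSG mice, all above the WT mice, at 0.65 ± 0.145 (adjusted p = 0.00337). Itga3 was higher by 0.36 ± 0.108 (adjusted p = 0.0359). Itgax in non-stroked NSG mice lay above all non-stroked WT mice without passing the test (2.03 ± 0.941, adjusted p = 0.192). NOD background and immune deficiency cannot be told apart in NSG mice. Leaving out any of 1Wt, 4Wt, 5Wt and 3NSG gave 3 calls in place of 5. In non-stroked Rag2-/- mice no member was called, where 0.00587% of all genes were. By edgeR 0 members had an unadjusted p below 0.05 there, where 2.05% of all genes did, and DESeq2 also called 0.

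The stroke response of Rag2-/- and of NSG mice was set against the WT response by testing the difference between the 2 changes. No member was called in either, where 0% and 0.0294% of all genes were called. At an unadjusted p below 0.05 edgeR gave 1 member for Rag2-/- (4.19% of all genes) and 3 for NSG mice (12.7%), and DESeq2 called 0 in both. Itga2b had the smallest p in both, with differences of -0.67 ± 0.221 (adjusted p = 0.95) and -0.55 ± 0.209 (adjusted p = 0.295). The differences for Itgax were -0.91 ± 1.37 (adjusted p = 0.958) and -1.5 ± 1.13 (adjusted p = 0.582), with errors too wide to tell a like response from a weaker one. For Itgb5 they were -0.19 ± 0.264 (adjusted p = 0.956) and -0.18 ± 0.254 (adjusted p = 0.786), and for Lamb2 -0.07 ± 0.274 (adjusted p = 0.982) and -0.32 ± 0.264 (adjusted p = 0.621).

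Stroked WT-Tacr mice were compared directly with stroked WT mice and with each other to ask whether the drug and its timing changed the subunits. Against stroked WT mice no member was called in either drug group, where 0% of all genes were called in both. At an unadjusted p below 0.05 edgeR gave 11 members for the acute group, all lower (12.7% of all genes in either direction), and 6 for the delayed group, 5 of them higher (20.3%), and DESeq2 called 0 in both. The smallest adjusted p was 0.311 for the acute group (Itgae, -1.65 ± 0.496 on the log2 scale) and 0.187 for the delayed group (Lamc3). Without mouse 2_1, 10 members were called lower in acute than in stroked WT mice. The share of all genes called in that setting is not given here, so the count is not read as particular to the members.

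Between the drug groups, 12 members were higher in delayed than in acute mice and none was lower, where 20.3% of all genes were called and 10.4% were higher, and 4 differed by over 1 on the log2 scale (5.22%). They were Itgal, Itgam, Itgax and Itgb2 of the beta 2 family, Itgae, Itgb1, Itgb5, Itga6, Lama1, Lama2, Lamb1 and Lamb2. The content of the dissected pieces also differed between these groups. Choroid plexus markers summed to 9.29 to 827 CPM (median 782) in delayed and 3.79 to 13.7 CPM in acute mice, and 3 of the 4 were called higher. The causes of the differences between the drug groups were not tested. Itgax differed by 2.44 ± 0.648 (adjusted p = 0.0139), Itgae by 2.09 ± 0.478 (adjusted p = 0.0103), Itgb5 by 0.85 ± 0.183 (adjusted p = 0.0102) and Lamb2 by 0.85 ± 0.191 (adjusted p = 0.0102). The count changed with the acute mice that entered. It was 0 without mouse 5m_1, 0 without mouse 1_5, 0 within the TF cohort, 0 with the choroid plexus level as a covariate, and 0 with mouse 2_1 as the only acute mouse, which was assumed to vary like the other groups. Without mouse 2_1 it was 18, where the share of all genes called is not given here. The differences themselves ranged over these and the other alternatives from 0.97 to 5.09 for Itgax, from 0.23 to 1.27 for Itgb5 and from 0.42 to 1.10 for Lamb2. For Itgae, with 2 to 4 counts in each acute mouse, they ranged from 1.5 to 2.42. They ranged less for Lama2 (0.40 to 0.61), so for Lama2 a lost call went with a difference of similar size.

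**Figure D5:**
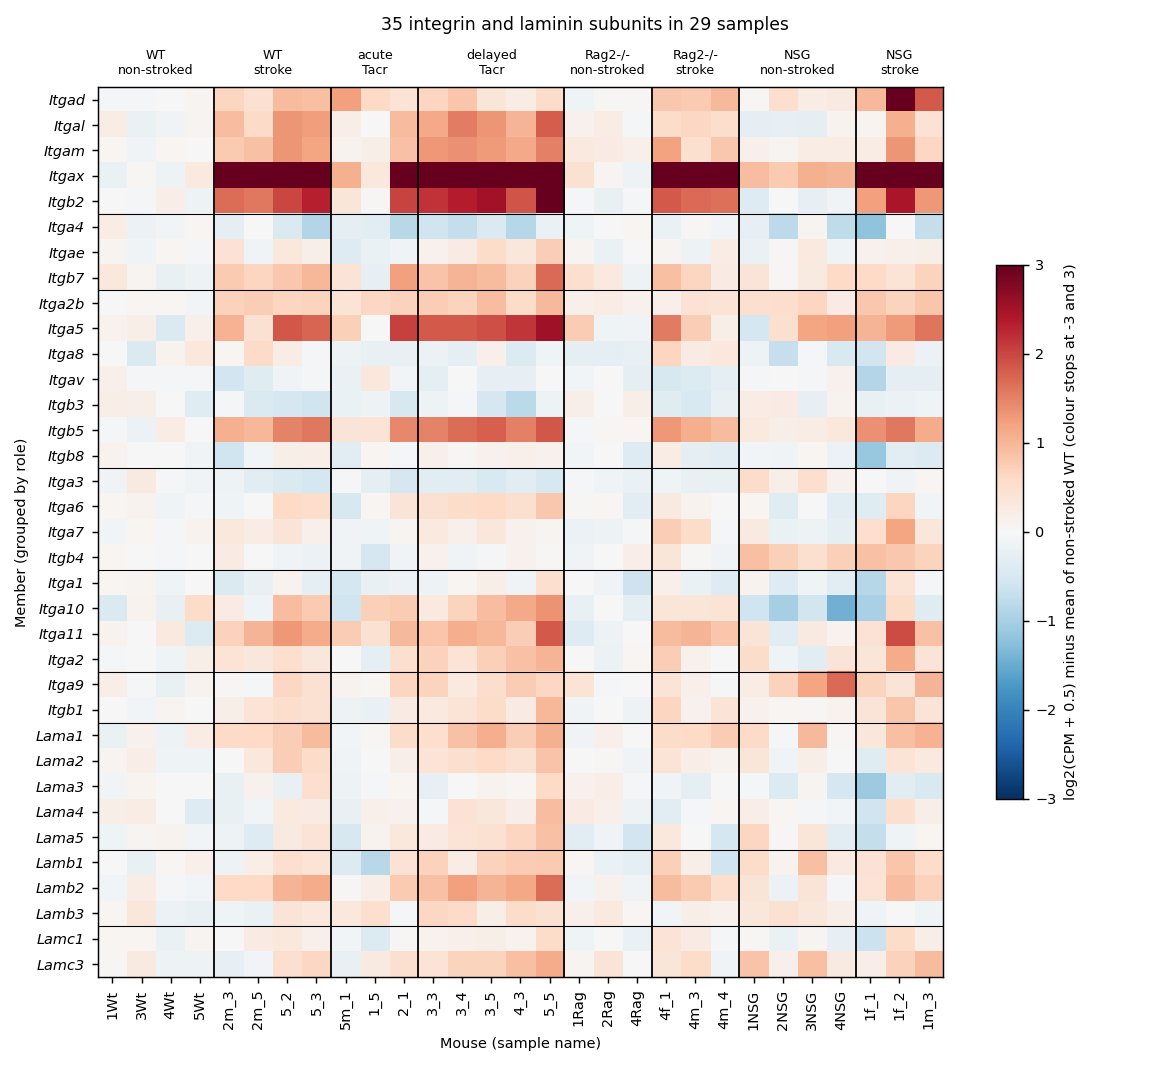
Each of 35 tested members (rows, grouped by role) in each of 29 samples (columns), as log2(CPM + 0.5) minus the mean of the 4 non-stroked WT samples, with colours that stop at -3 and 3. In the Itgax row acute mouse 2_1 (12.7 CPM) is coloured like the stroked WT mice, and mice 5m_1 and 1_5 (0.974 and 0.375 CPM) are much paler.

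Genes that work with the subunits were counted in 3 lists. Beside them, 15.2% of all genes were higher and 11.6% lower in stroked WT mice, 6.18% and 2.36% in WT-Tacr acute, 27.6% and 27.6% in WT-Tacr delayed, 6.71% and 1.53% in Rag2-/- mice, and 13.0% and 8.89% in NSG mice. Of 26 integrin activation and adaptor genes tested, 7 were higher and 2 lower in stroked WT mice (median log2 fold change 0.09), 2 and 0 in WT-Tacr acute, 10 and 6 in WT-Tacr delayed, 6 and 0 in Rag2-/- mice, and 7 and 1 in NSG mice. Fermt3, the kindlin of blood cells that activates integrins, rose most clearly, at 1.48 ± 0.203 in stroked WT mice (adjusted p = 3.16e-05), followed by Ilk, the integrin-linked kinase, at 0.41 ± 0.0668 (adjusted p = 0.000114), and Tns3, a tensin, at 0.76 ± 0.137 (adjusted p = 0.000283). Fermt3 and Ilk passed in all 5 stroke comparisons.

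Of 15 basement membrane partners and other laminin receptors, 6 were higher and none lower in stroked WT mice (median 0.23), 2 and 0 in WT-Tacr acute, 9 and 1 in WT-Tacr delayed, 3 and 0 in Rag2-/- mice, and 4 and 0 in NSG mice. The syndecans Sdc4 and Sdc1, cell surface proteoglycans that bind laminin, rose by 1.52 ± 0.152 (adjusted p = 1.2e-06) and 2.15 ± 0.392 (adjusted p = 0.000349) in stroked WT mice, and Fbln1, a matrix protein, by 1.76 ± 0.379 (adjusted p = 0.00153). Both syndecans passed in all 5 stroke comparisons.

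Of 28 other integrin ligands tested, 14 were higher and 1 lower in stroked WT mice (median 0.38), 3 and 1 in WT-Tacr acute, 18 and 3 in WT-Tacr delayed, 8 and 0 in Rag2-/- mice, and 12 and 0 in NSG mice. Spp1, the ligand osteopontin, rose by 4.87 ± 0.698 in stroked WT mice (adjusted p = 4.25e-05) and Icam1, the ligand of the beta 2 integrins, by 2.24 ± 0.336 (adjusted p = 6.03e-05). Nrros, which holds latent TGF-beta on myeloid cells, rose by 1.36 ± 0.182 (adjusted p = 2.55e-05). All 3 passed in every stroke comparison. The alternatives were run for the members only, so how the WT-Tacr acute calls of genes in these lists depend on mouse 2_1 was not tested.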

How the data were processed

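The deposited values are raw counts of reads per Ensembl gene, 1 file per sample, which the authors made from polyA-selected, stranded libraries. The aligner, genome build and use of strand are not given in the sources used here. Symbols, positions and exon lengths are from GENCODE M21 on GRCm38, where 25712 IDs were found and 34 were not. No 2 samples held identical values.

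Genes were tested in R 4.3.3 with edgeR 4.0.16 (TMM normalization, filterByExpr by group, quasi-likelihood F test), in 1 fit of 8 groups, 29 samples and 17031 genes, with Benjamini-Hochberg adjustment over all genes in each comparison. A gene is called at an adjusted p below 0.05. The SE is the absolute log2 fold change divided by the square root of F. CPM rests on the TMM-adjusted library size, and RPKM divides it by exon length. The SE includes the dispersion estimated between samples, and the SD is the spread between the samples of a group. The lower bounds for Itgad set a group mean against a level of 3 counts and carry no error. The fit was tested on simulated counts for 16695 genes. It called 200 of the 200 genes altered between the WT groups and 9 that were not. How often the fit misses or wrongly calls genes in the measured samples, among them members with few counts or small changes, was not tested.

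Results were recomputed with RLE normalization, without the filter, with a mean of at least 1 CPM, a minimum log2 fold change of 1, cohort or Ddx3y as a covariate, fits within a cohort or of only the groups compared, DESeq2 1.42.0, a replicate block and leaving out each sample. The choroid plexus level as a covariate and mouse 2_1 as the only acute mouse were added after the data were seen. The members and all lists were chosen with earlier results of these data known. Values in every sample are given for members called with an absolute log2 fold change above 1 in any comparison, and for Itgb1. Others are named by role, and from each list the 3 genes with the smallest p in stroked WT mice. Promoter windows from RefSeq were found for 23 of the 37 members, and 3 are shown. Values of 1 member and of 1 marker list are not reported here.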

Additional observations from a re-analysis of the deposited data

Results flagged for a closer look

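Of 60 sets of values (a named member in a group of 4 or 5 samples), 5 held a sample whose gap to its nearest neighbour was large against the range of the group. Chance gives about 1 in 20 sets, or 3 of 60. Itga11 read 9.18 CPM and Itgb7 2.23 CPM in WT-Tacr delayed mouse 5_5, above the other four mice of the group. This mouse also had the highest fibroblast marker sum of all samples. Itga5 read 2.81 CPM in non-stroked WT mouse 4Wt, below the other three, Lamb2 read 32.5 CPM in non-stroked WT mouse 3Wt, above the others, and Itgal read 1.02 CPM in non-stroked NSG mouse 4NSG, above the others. No cause of these values was tested.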

How the results depend on the processing

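Requiring a log2 fold change above 1 left 9 called members in stroked WT, 3 in WT-Tacr acute, 13 in WT-Tacr delayed, 5 in Rag2-/- and 6 in NSG mice, 1 in non-stroked NSG against WT mice and 4 between delayed and acute mice. With cohort as a covariate 0 members were called in WT-Tacr acute and 8 in WT-Tacr delayed mice, where Itga6 turned to -0.08, Lama5 to -0.12 and Itga10 to -0.17 on the log2 scale. With Ddx3y as a covariate the counts were 2 in WT-Tacr acute, 12 in WT-Tacr delayed and 8 in NSG mice. Fits of only the groups compared called 0 in WT-Tacr acute mice, 4 in NSG mice and 0 between delayed and acute mice. Within Imm2 the counts were 7 in stroked WT and 0 in WT-Tacr acute mice, and within TF 0 between delayed and acute mice. That last count was also 0 with the choroid plexus level as a covariate. The causes of these shifts were not tested. DESeq2 kept all 84 calls of members.

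Leaving out 1 sample at a time gave 11 to 16 called members in stroked WT, 1 to 7 in WT-Tacr acute, 23 to 27 in WT-Tacr delayed, 3 to 9 in Rag2-/- and 7 to 12 in NSG mice. It gave 3 to 4 for non-stroked NSG against WT, 0 to 10 for acute against stroked WT, 0 to 18 for delayed against acute mice, and 0 in the other comparisons. Shares of all genes called under each alternative are not given here, so these counts describe the members only.

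Replicate numbers in the labels are shared by non-stroked mice of the 3 strains. Deviations of same-numbered mice correlated at -0.279, 0.13 and -0.122 between NSG and WT and at 0.107 and 0.127 between Rag2-/- and WT mice. These few values show no clear shared deviation, and whether same-numbered mice were handled together cannot be told from them. With a replicate block 4 members were called in non-stroked NSG against WT mice, as without it on the same samples, and 0 in Rag2-/- against WT mice. In both fits on these samples the calls of Itga9 (1.13 with the block, adjusted p = 0.142), Itga2b (0.59, adjusted p = 0.178) and Itga3 (0.37, adjusted p = 0.124) were lost.

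Members under about 1 CPM, such as Itgad, Itgae, Itga2 and Itgb7, rest on few counts, and groups of 3 to 5 samples leave wide errors on differences between responses.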
